A study of Mus musculus with 6 samples.

Results

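The long H2Bub stretches of myotubes are the places where peaks of ubiquitylated histone H2B lie close together in differentiated muscle cells. They were chosen by the positions of peaks called on myotube (MT) reads, by joining the peaks of the MT list on chromosomes 1 to 19 and X across gaps of up to 3000 bp and keeping joined stretches of 5000 bp or longer. This gave 591 stretches out of 17775 joined stretches of any length (3.32%), holding 5286 of the 25743 MT peaks (20.5%). The cells were C2C12, a mouse myoblast line that fuses into multinucleated myotubes on serum withdrawal. MT libraries came from cells differentiated for 96 h, or 4 days, in DMEM with 2% horse serum and a medium change at day 2. The libraries of growing myoblasts (MB) came from cells harvested at about 40% confluency in DMEM with 10% fetal bovine serum. Each group had 3 libraries, made from chromatin digested with micrococcal nuclease and precipitated with 1 monoclonal H2Bub antibody. The source labels spell the line C1C12 and the cell type label C2C12. The labels name no transgene or other treatment, and give each library its own antibody lot number. The lot numbers run on from sample to sample, which leaves doubt that they are different lots. If they do, lot and library cannot be told apart. Separate cultures are not mentioned for the replicates, so p-values reflect only the spread between these libraries, which may be technical.

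Ubiquitin is attached to histone H2B while RNA polymerase II transcribes, by the E3 ligase pair Rnf20 and Rnf40, and the mark spreads over the bodies of active genes. It is removed by deubiquitylases such as Usp22, so its level follows the balance of both activities. Long unbroken runs of the mark are typical of highly transcribed genes. Myotubes have left the cell cycle and express the genes of the contractile apparatus. The series asks how H2Bub changes between growing myoblasts and myotubes. All coordinates are on build mm9, with the ends of peaks as deposited. The annotation and promoter sequences at hand are on another build, so no gene is named and no sequence is shown for the stretches.

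The stretches were mostly short, with a small number of very long ones. Lengths began at 5002 bp, with a median of 7.76 kb and quartiles at 6.15 and 11.2 kb, and the longest reached 106.9 kb. There were 409 stretches of 5 to 10 kb, 133 of 10 to 20 kb, 42 of 20 to 50 kb and 7 of 50 kb or longer. In all they spanned 6.30 Mb, and 31.7% of these bases lay inside an MT peak, the rest being gaps between peaks. A stretch held 3 to 101 peaks, with a median of 6. The peaks inside the stretches had a median width of 315 bp, against 270 bp for MT peaks elsewhere. Those 2 widths belong to the list that chose the stretches and are a description. Close to the length threshold, the 2 shortest members were at chromosome 7, 74469435 to 74474437 (5002 bp, 4 peaks), and chromosome 4, 107967569 to 107972575 (5006 bp, 5 peaks). Just outside it lay chromosome 8, 35958967 to 35963960 (4993 bp, 3 peaks), and chromosome 13, 9302132 to 9307115 (4983 bp, 6 peaks). The first of these members had 8.90, 1.84 and 7.53 reads per 1000000 reads of the library (RPM) in the MT libraries, against 17.97, 20.6 and 13.5 RPM in the MB libraries. The longer stretch just outside had 4.33, 3.03 and 5.32 RPM in MT libraries, against 19.2, 18.7 and 14.7 RPM in MB libraries.

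1 of the MT libraries stood apart over these stretches. The libraries held 8767810, 9251714 and 14480532 reads in MT, and 9293327, 10500415 and 15903500 in MB. Of these, 85176, 35424 and 132091 MT reads and 276230, 340900 and 404671 MB reads lay in the stretches. MT replicate 2 was the lowest MT library in 585 of the 591 stretches. To set each stretch against its own surroundings, its read density was divided by that of the 10 kb windows without any peak that lie within 250 kb of it. The median of this ratio over the stretches was 2.98 in MT replicate 1 and 2.73 in MT replicate 3, but 1.28 in MT replicate 2. It was 14.8, 17.1 and 11.2 in the MB libraries. More than 2 times the local background was reached by 538 and 519 stretches in MT replicates 1 and 3, by 23 in MT replicate 2, and by 579 to 582 in the MB libraries. The counts of calls and the log2 fold changes of the long and dense stretches below are therefore also given without it.

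The gap between MT replicate 2 and the other MT libraries widened with the length of the stretch. Of the 14857 MT peaks that joined no other peak, 14856 had windows for a local background. Over these, density was 3.49, 3.16 and 3.62 times the local background in MT replicates 1, 2 and 3, so the 3 libraries were close there. Over the long stretches of 5 to 10 kb it was 2.97, 1.36 and 2.71 times. At 20 kb or longer the values were 3.63, 1.17 and 3.29 times. Density thus increased with length from 5 kb upward in MT replicates 1 and 3 and decreased in MT replicate 2. In the MB libraries the single MT peaks had 5.66, 6.73 and 4.87 times the local background, and the stretches of 20 kb or longer had 16.3, 18.8 and 12.1 times. The sources used here do not name the MT libraries behind the deposited MT list. The MT values were used in choosing the stretches, so they are given as a description with no test.

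**Figure D1:**
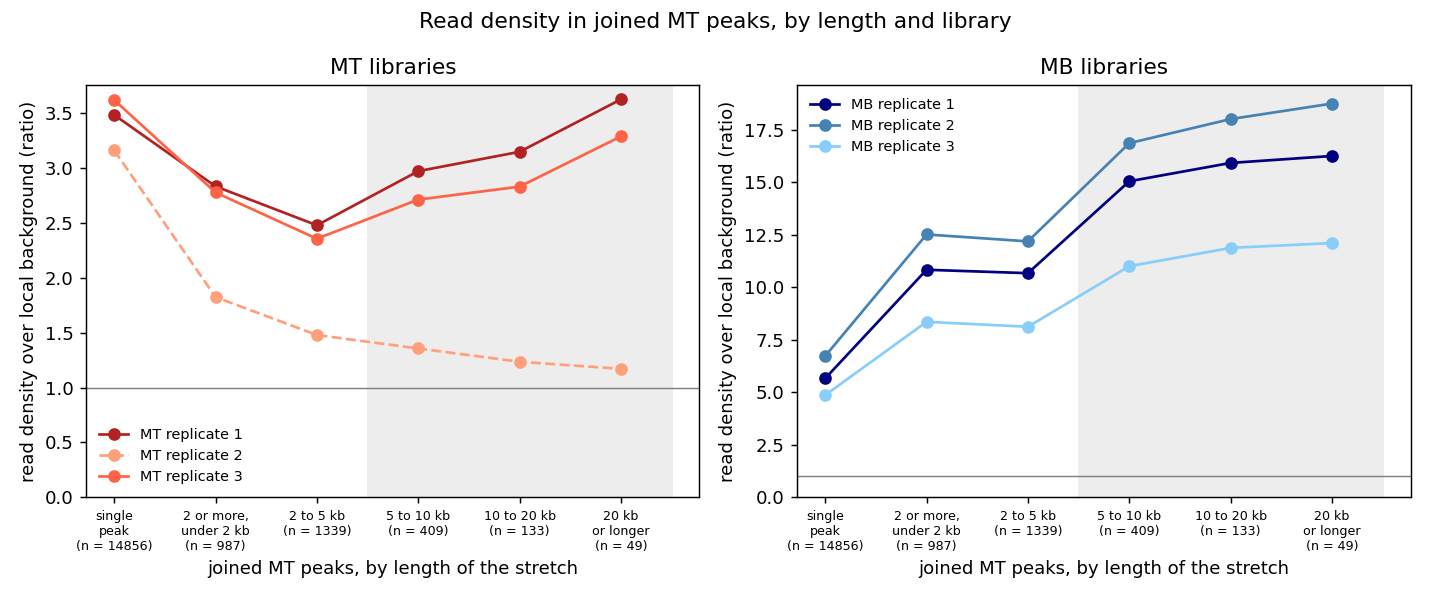
Read density over the local background (ratio, linear axes that differ between panels) in joined MT peaks, by length of the stretch, for the 3 MT libraries on the left and the 3 MB libraries on the right; points are pooled values of a class, and the grey area marks the long stretches. MT replicate 2 falls to 1.17 at 20 kb or longer, where MT replicates 1 and 3 have 3.63 and 3.29 and the MB libraries 12.1 to 18.8.

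The long MT stretches were already rich in H2Bub in myoblasts. The MB reads and the MB peak list took no part in choosing the stretches. Of the 591 stretches, 579 overlapped at least 1 MB peak (98.0%, exact binomial interval 96.5 to 98.9%), and MB peaks covered 77.3% of all stretch bases. These shares were not set against shorter joined MT stretches or the rest of the genome. The interval treats stretches as independent, although 281 of them lay within 50 kb of another. MB peaks joined in the same way into stretches of 10 kb or longer, called MB domains here, contained 518 of the stretches whole, and 542 by at least 80% of their length. Another 37 stretches touched an MB peak but lay less fully in an MB domain, and 12 had no MB peak. Per length, the stretches held 1.54, 0.608 and 1.45 RPM per kb in MT replicates 1, 2 and 3, against 4.72, 5.16 and 4.04 RPM per kb in MB replicates 1, 2 and 3. The windows without peaks had 0.358, 0.377 and 0.357 RPM per kb in the MT libraries, against 0.221, 0.193 and 0.232 RPM per kb in the MB libraries.

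The share of reads in the stretches was smaller in myotubes, although the stretches were chosen for their MT peaks. It averaged 0.756% ± 0.324 in MT and 2.92% ± 0.354 in MB (SD, n = 3 each), a difference of -2.17 percentage points. The libraries had 0.971%, 0.383% and 0.912% in MT, against 2.97%, 3.25% and 2.54% in MB, so the groups did not overlap. The exact two-sided permutation test gave p = 0.1, the smallest that 3 against 3 libraries allow. Without MT replicate 2 the MT mean was 0.942%, and the difference from MB was -1.98 points (exact permutation test, p = 0.1). The median density over local background averaged 2.33 ± 0.919 in MT and 14.4 ± 2.94 in MB (SD, n = 3 each; exact permutation test, p = 0.1), and 2.86 in MT without replicate 2. The MT values of both measures were used in choosing the stretches, which favours higher MT values. The p-values of both are therefore not independent of the choice.

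Stretch by stretch, 544 of the 591 were lower in MT and 10 were higher by limma voom (scaled to total reads, adjusted p under 0.05), and the log2 fold changes had a median of -2.06. All 591 had passed the floor on low counts. The fit ran over the stretches and 232658 windows of 10 kb outside them. Over all 233249 features tested, 13.0% were called lower and 71.1% higher, and the median log2 fold change was 0.78. The stretches were thus called lower in 92.0% of cases, against 13.0% of all features, most of which were windows without peaks. When MT replicate 2 was left out, 513 were lower and 15 higher with a median of -1.64, against 12.1% and 63.1% of all features. All 513 were among the 544, and the 10 higher stretches stayed higher. With scaling to the windows without peaks, called background scaling here, 573 were lower and 1 was higher, and the median was -2.92. Over all features, 19.8% were then lower and 0.548% higher. A choice on MT reads favours higher MT values, so these counts are not independent of the choice. MB domains without a long MT stretch were also less dense in MT. They had 1.90, 1.38 and 1.87 times the density of the windows without peaks in MT, against 10.2, 13.1 and 8.93 times in MB. The stretches had 4.32, 1.61 and 4.06 times in MT, against 21.3, 26.7 and 17.4 times in MB. Those domains were chosen on MB peaks and the lack of a long MT stretch, which favours lower MT values.

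**Figure D2:**
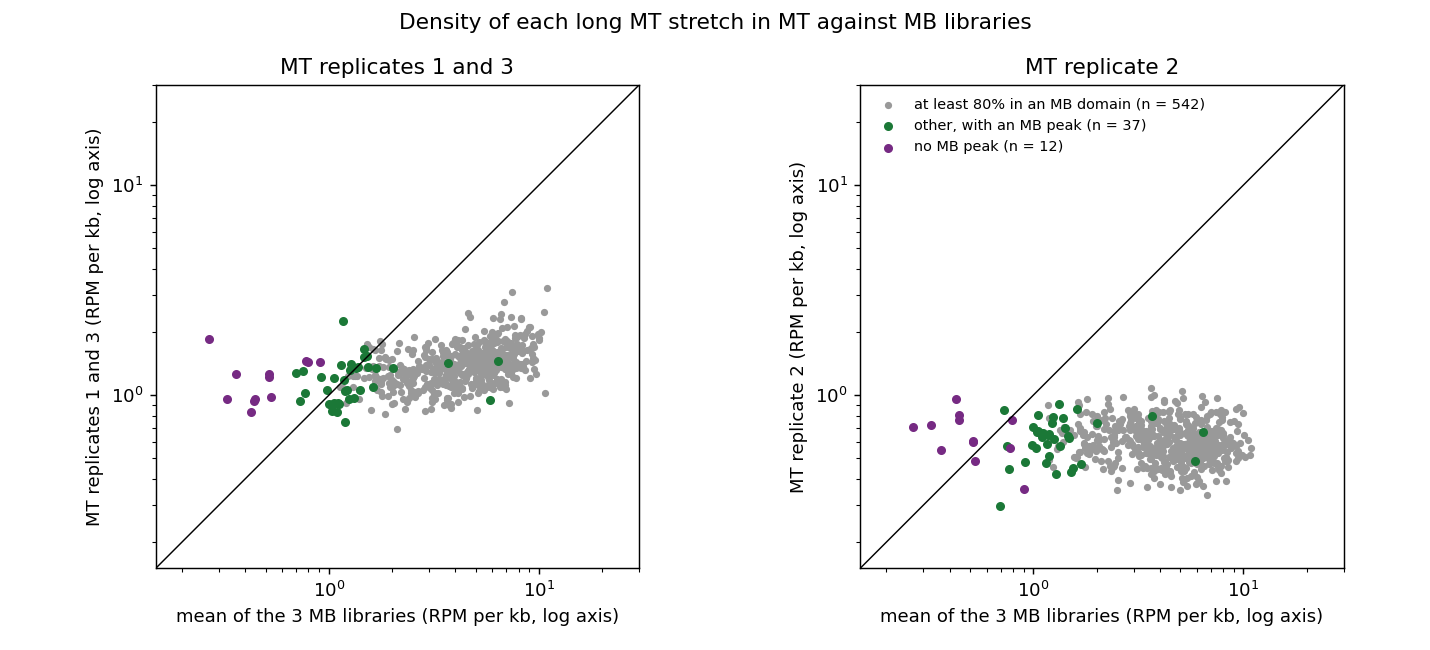
Density of each of the 591 stretches in RPM per kb (log axes): the mean of MT replicates 1 and 3 (left) or MT replicate 2 (right) against the mean of the 3 MB libraries, with the line of equal density; colours give the overlap with MB peaks. The 542 stretches inside MB domains lie mostly below the line, the 12 without an MB peak lie above it on the left, and MT replicate 2 stays in a narrow band whatever the MB density.

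The MB level of a stretch was mirrored weakly by MT replicates 1 and 3. Across the 591 stretches, Spearman's correlation of the density per kb with MB replicate 1 was 0.46 for MT replicate 1, 0.41 for MT replicate 3 and -0.14 for MT replicate 2. MT replicates 1 and 3 correlated with each other at 0.80, and with MT replicate 2 at -0.08 and -0.09. The 3 MB libraries correlated at 0.94 to 0.99. These values are descriptions, since neighbouring stretches and all libraries share copy number and the uniqueness of the sequence. In the 197 stretches of lowest MB density, medians were 1.23, 0.632 and 1.20 RPM per kb in the MT libraries, against 1.93, 2.19 and 1.88 RPM per kb in the MB libraries. In the 197 of highest MB density they were 1.57, 0.578 and 1.44 RPM per kb in MT, against 7.08, 7.60 and 5.68 RPM per kb in MB. The sets were made by MB density, so the MB medians had to differ, and the need for MT peaks narrows the range in MT.

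Inside the 10 longest stretches the pattern along the sequence was shared too. In 1 kb bins within a stretch (44 to 106 bins), Spearman's correlation of MT replicate 1 with the MB mean ran from 0.46 to 0.77 (median 0.67). For MT replicate 3 it ran from 0.29 to 0.86 (median 0.65), and for MT replicate 2 from 0.10 to 0.45 (median 0.32). MT replicates 1 and 3 had 0.42 to 0.77 between them. Bins of 1 stretch share mappability, so these are descriptions of the shape.

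The longest stretch lay at chromosome 15, 27846501 to 27953402 (106.9 kb, 101 MT peaks). It had 270.9, 73.7 and 257.2 RPM in MT, against 437.1, 533.9 and 505.9 RPM in MB, a log2 fold change of -1.55 (SE 0.57, limma adjusted p = 0.0125). All MT libraries were below all MB libraries, with MT replicate 2 far below the other MT libraries and at 1.07 times the local background. Without it the log2 fold change was -0.89 (limma adjusted p = 4.96e-06). The call was lost with limma-trend in place of voom, and when any 1 of the MB libraries was left out (log2 fold changes of -1.64 to -1.49).

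The stretch at chromosome 1, 39960510 to 40036152 (75.6 kb), was the next in length, with 149.1, 41.1 and 146.5 RPM in MT, against 440.5, 525.0 and 472.8 RPM in MB (log2 fold change -2.36, SE 0.54, limma adjusted p = 3.36e-04). Chromosome 15 also carried the third longest, at 8318378 to 8391661 (73.3 kb), with 118.5, 46.9 and 103.6 RPM in MT, against 451.0, 462.5 and 312.2 RPM in MB (log2 fold change -2.29, limma adjusted p = 2.45e-04). In both, the MT and MB libraries did not overlap, and without MT replicate 2 the log2 fold changes were -1.69 and -1.86. Neither was called with limma-trend in place of voom.

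A pair of long stretches lay 3.27 kb apart on chromosome 17, just beyond the gap that joins peaks. The stretch at 10456499 to 10509978 (53.5 kb) had 152.6, 26.8 and 145.6 RPM in MT, against 413.7, 400.9 and 281.8 RPM in MB. It was among the 5 densest of all stretches in MT, at 5.22 and 4.75 times the local background in MT replicates 1 and 3 and at 0.873 times in MT replicate 2. Its neighbour at 10406764 to 10453230 (46.5 kb) had 117.1, 29.3 and 100.9 RPM in MT, against 248.0, 242.2 and 168.0 RPM in MB. Both were lower in MT, with log2 fold changes of -2.16 and -1.69 (limma adjusted p = 0.00139 and 0.00358). Without MT replicate 2 these were -1.27 and -0.99. Both calls were lost with limma-trend and without MB replicate 2 (-2.09 and -1.62), and that of the shorter stretch also without MB replicate 1 (-1.60).

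In 2 of the 10 longest stretches no difference was called with all libraries and total reads. At chromosome 10, 39190004 to 39234484 (44.5 kb), MT libraries had 76.5, 27.8 and 71.6 RPM, against 56.8, 67.7 and 72.5 RPM in MB (log2 fold change -0.30 with an SE of 0.38, limma adjusted p = 0.443). At chromosome X, 166345915 to 166406300 (60.4 kb), they had 113.4, 35.6 and 105.1 RPM, against 118.0, 121.9 and 77.2 RPM in MB (log2 fold change -0.54, SE 0.44, limma adjusted p = 0.24). In both, MT replicates 1 and 3 lay within or above the range of the MB libraries, and MT replicate 2 lay below it. Leaving out MT replicate 2, the log2 fold changes were 0.18 and 0.081 (limma adjusted p = 0.326 and 0.66). MB peaks covered 37.3% and 43.8% of these 2 stretches. The other 8 were lower in MT, and MB peaks covered 82.7 to 89.7% of each.

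**Figure D3:**
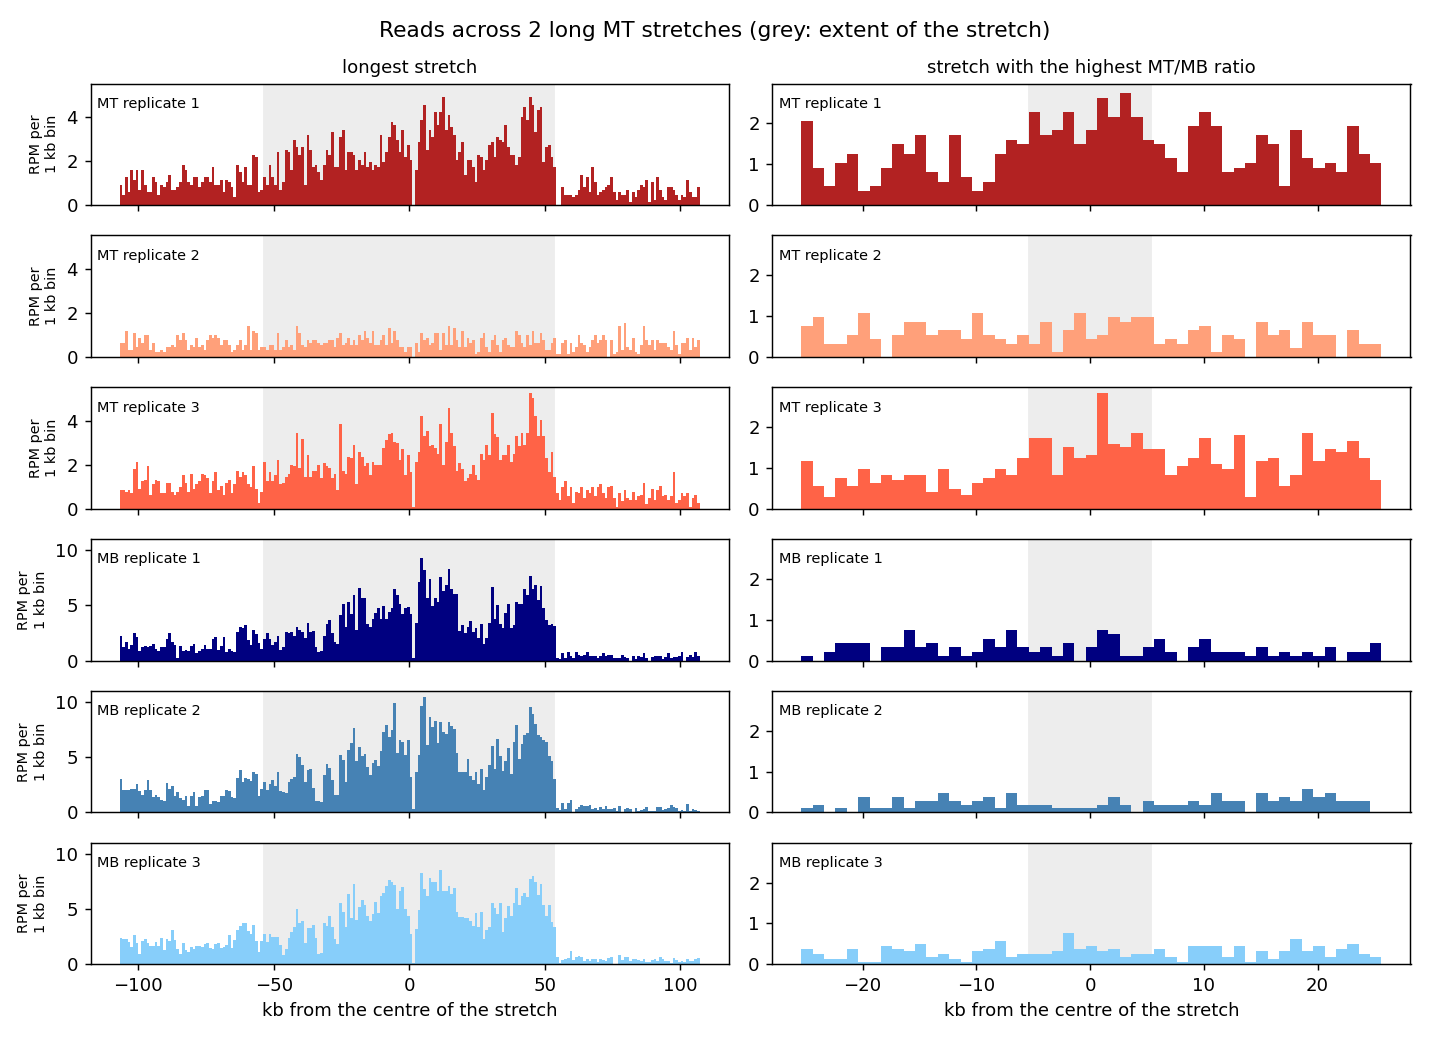
Reads in RPM per 1 kb bin by distance from the centre of the stretch (grey area), in each MT library and then each MB library, for the longest stretch (left, with separate scales for MT and MB) and the stretch with the highest MT to MB ratio (right, 1 scale). On the left MT replicates 1 and 3 follow the MB outline at lower height and MT replicate 2 is nearly flat; on the right the MB libraries are low, with 1.81 to 3.65 RPM over the stretch against 7.57 to 22.5 RPM in MT.

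The densest stretches in MT were short as well as long. At chromosome 13, 48631328 to 48639653 (8.33 kb), MT libraries had 26.8, 4.65 and 27.1 RPM, against 102.7, 100.2 and 70.1 RPM in MB. This was 6.66 and 6.44 times the local background in MT replicates 1 and 3, 1.21 times in MT replicate 2, and 25.01 to 44.6 times in MB. At chromosome 2, 49308229 to 49330649 (22.4 kb), they had 77.2, 12.1 and 61.1 RPM, against 179.4, 190.5 and 128.9 RPM in MB. The other member of these 5 that is not described above was at chromosome 15, 25554268 to 25566359 (12.1 kb), with 29.4, 9.19 and 29.7 RPM in MT, against 79.0, 84.8 and 76.9 RPM in MB. All 3 were lower in MT, with log2 fold changes of -2.67, -2.17 and -2.05 (limma adjusted p = 3.37e-05, 6.47e-04 and 4.94e-05). Without MT replicate 2 these were -1.73, -1.25 and -1.44. The stretch on chromosome 2 was not called with limma-trend.

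The stretches with the lowest log2 fold changes lay wholly inside MB domains. The lowest was at chromosome 4, 154882906 to 154887916 (5.01 kb), with 4.56, 2.59 and 5.73 RPM in MT, against 54.7, 62.8 and 43.8 RPM in MB (limma adjusted p = 2.10e-11, log2 fold change -3.67 with an SE of 0.31). It was still at 2.16, 1.34 and 2.38 times its local background in MT, against 42.8, 44.8 and 23.9 times in MB. It was followed by chromosome 4, 131432539 to 131440946 (log2 fold change -3.32), chromosome 17, 32395397 to 32413510 (-3.29), chromosome 11, 59023719 to 59038181 (-3.19), and chromosome 9, 108210640 to 108217028 (-3.18). MB peaks covered between 73.9% and all of the bases of these 5 stretches.

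The 12 stretches without an MB peak went the other way. By limma voom 10 of them were higher in MT and 2 were not called, the median over the 12 being 0.91 on the log2 scale, and the 10 higher stretches were all of this kind. They were set apart for having no MB peak, so their direction follows in part from that choice, and 71.1% of all features were higher by the same scaling. With background scaling 1 of the 12 was higher, 1 was lower and 10 were not called, against 0.548% of all features higher and 19.8% lower. All 12 were higher without MT replicate 2, as were 63.1% of all features. Their median density was 2.37, 1.23 and 2.18 times the local background in the MT libraries, against 1.43, 1.57 and 1.63 times in the MB libraries.

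The stretch at chromosome 8, 64288103 to 64298872 (10.8 kb, 10 MT peaks), was the only 1 of the 591 higher in MT under both scalings. It had 22.5, 7.57 and 17.4 RPM in MT, against 3.23, 1.81 and 3.65 RPM in MB, so the groups did not overlap. The log2 fold change was 2.29 (SE 0.28, limma adjusted p = 1.07e-08), and 1.48 with background scaling (limma adjusted p = 5.08e-05). This stretch and the higher ones described below rest on MT peaks, lack MB peaks and were named for high log2 fold changes. Their p-values and the order of their libraries are therefore not independent of the choice. Relative to the local background it stood at 3.62, 1.55 and 3.03 times in MT, against 0.971, 0.584 and 1.16 times in MB.

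A pair of stretches on chromosome 2 was also called higher with total reads, but not with background scaling alone. At 76574465 to 76584342 (9.88 kb), MT libraries had 12.8, 5.40 and 12.0 RPM, against 2.04, 3.43 and 5.28 RPM in MB (log2 fold change 1.36, SE 0.26, limma adjusted p = 5.04e-05). At 76977085 to 76989544 (12.5 kb), they had 16.9, 7.46 and 14.6 RPM, against 6.13, 6.29 and 6.98 RPM in MB (log2 fold change 0.91, SE 0.22, limma adjusted p = 6.37e-04). In both, each MT library was above each MB library, by a narrow margin in MT replicate 2. With background scaling neither was called (log2 fold changes of 0.62 and 0.08, limma adjusted p = 0.139 and 0.93). With the replicate number added to that fit they were at 0.72 and -0.10, and the first was called. With background scaling and without MT replicate 2 they were at 1.07 and 0.48, and the first was called and the second not.

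On chromosome 3, 5 stretches lay side by side between 55056869 and 55144881, a span of 88.0 kb. Together they had 86.1, 34.2 and 81.7 RPM in MT, against 52.6, 48.1 and 44.7 RPM in MB, so MT replicates 1 and 3 were above and MT replicate 2 below all MB libraries. The member at 55115336 to 55130628 (15.3 kb) was the longest of all stretches without an MB peak, with 24.6, 8.54 and 19.9 RPM in MT, against 14.3, 11.6 and 9.68 RPM in MB. It was not called (log2 fold change 0.41, SE 0.26, limma adjusted p = 0.134), but was higher without MT replicate 2 (log2 fold change 0.92, limma adjusted p = 8.78e-05). With background scaling its log2 fold change was -0.44, and 0.11 when MT replicate 2 was also left out. Relative to the local background it stood at 2.79, 1.12 and 2.37 times in MT, against 3.44, 3.04 and 2.02 times in MB. Its neighbour, at 55135989 to 55144881, was higher by a log2 fold change of 0.54 (SE 0.22, limma adjusted p = 0.0214). That call was lost without MT replicate 1 (0.38), MT replicate 3 (0.40), MB replicate 2 (0.55) or MB replicate 3 (0.44). Relative to the local background this neighbour stood at 2.53, 1.66 and 2.74 times in MT, against 3.35, 3.46 and 2.29 times in MB. Further along, the stretch at 55242250 to 55247986 was higher by 0.87 (SE 0.24, limma adjusted p = 0.0016). With background scaling these last 2 were at -0.33 and 0.04 and neither was called. The other 5 of the 10 higher stretches, 2 of them on chromosome 15, were 5.10 to 6.42 kb long with a mean of under 50 reads per library and log2 fold changes of 0.54 to 1.38.

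Between the extremes lay the 37 stretches with an MB peak but less than 80% inside an MB domain. Of these, 16 were lower, 0 higher and 21 not called by limma voom, with a median of -0.43 on the log2 scale. Without MT replicate 2 they had 7 lower and 3 higher, and with background scaling 32 lower and 0 higher. Of the 542 stretches inside MB domains, 528 were lower and 0 higher, and their median was -2.16, against 506 lower, 0 higher and -1.70 without MT replicate 2. Over all features 13.0% were lower and 71.1% higher, or 12.1% and 63.1% without MT replicate 2. With background scaling the shares were 19.8% and 0.548%. Both classes were set by MB peaks, which favours higher MB values, so their direction follows in part from that choice. By length, the median was -1.99 at 5 to 10 kb, -2.17 at 10 to 20 kb, -2.16 at 20 to 50 kb and -1.87 in the 7 stretches of 50 kb or longer. The same medians were -1.62, -1.71, -1.55 and -1.27 without MT replicate 2.

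MB domains that held a long MT stretch were the longer and denser ones. A long MT stretch lay at least in part in 413 of the 5326 MB domains (7.75%), which are counted here as holding it. A whole stretch lay in 391 domains. The median length of the 413 was 44.2 kb, against 20.2 kb for the others. By length, the share was 1.97% at 10 to 20 kb, 8.0% at 20 to 50 kb and 25.9% at 50 to 100 kb. It was 47.3% of the 91 domains of 100 kb or longer, which also offer more bases. The share differed by MB density at similar length too. MB domains of 20 to 50 kb were ranked by MB density and cut into 5 sets of about equal number. In the densest set 24.7% held a stretch, against 2.28% to 7.09% of the other sets. In that length class the domains with a stretch were 1.58, 1.54 and 1.49 times as dense as those without in the MB libraries. These are counts from 1 list per group and have no replicate error.

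**Figure D4:**
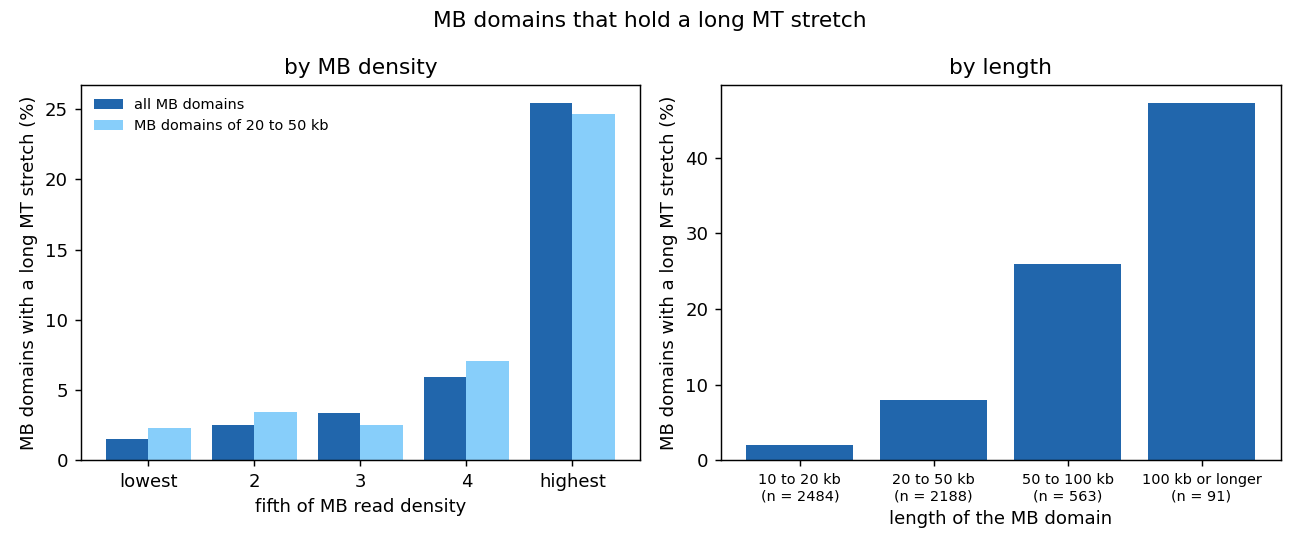
Percent of MB domains that hold a long MT stretch at least in part (linear axes), in 5 sets of rising MB read density for all MB domains and for those of 20 to 50 kb (left), and by length of the domain (right). The densest set stands at 25.4% of all MB domains and 24.7% of those of 20 to 50 kb, and the share is 47.3% at 100 kb or longer.

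Within its own MB domain, the MT stretch marked a place that was already dense in myoblasts. In 388 MB domains that held a whole stretch and at least 2 kb besides, the MB density of the stretch was 1.58, 1.56 and 1.55 times that of the rest of the domain in MB replicates 1, 2 and 3 (medians over domains). In 342 of the 388 the stretch was denser in all 3 MB libraries. The same ratio was 1.51, 1.13 and 1.47 in MT replicates 1, 2 and 3, values used in choosing the stretches. All libraries share copy number and the uniqueness of the sequence, and the part of these in the ratios was not tested. A stretch took up a median of 17.0% of its MB domain, with quartiles at 9.59% and 26.3%. It began or ended a median of 6.75 kb from the nearer end of the domain, and 103 of 518 (19.9%) lay within 1 kb of it. The centres of the 518 stretches fell 92, 113, 102, 123 and 88 times into 5 successive parts of the domain of equal length.

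The fine position of the MT peaks was also visible in myoblasts. Inside the stretches, MB density in the MT peaks was 1.56, 1.59 and 1.56 times that in the gaps between them in MB replicates 1, 2 and 3. In the MT libraries the ratio was 2.25, 1.99 and 2.31, which follows from how peaks are called. Peaks and gaps can differ in the uniqueness of the sequence, which all libraries share, and its part in the MB ratio was not tested. At the ends of the stretches, MB density averaged 8.24 ± 1.61 times the local background 10 to 5 kb outside, 10.5 ± 2.11 in the last 1 kb outside and 14.2 ± 2.95 in the first 1 kb inside (SD, n = 3). The MT libraries had 1.65 ± 0.452, 1.67 ± 0.563 and 2.61 ± 0.964 in the same zones. The first 250 bp inside reached 4.61, 2.16 and 4.24 in MT, against 16.9, 19.3 and 12.6 in MB, and every stretch ends at the edge of an MT peak. MT replicate 2 was at 1.03 in the last 1 kb outside and at 1.22 between 1.5 and 2.5 kb inside. The outer 1 kb at each end had 1.08 ± 0.113 times the density of the rest of the stretch in MT and 0.929 ± 0.00566 times in MB (SD, n = 3 each), and 1.01 times in MT without replicate 2. Ending each stretch at an MT peak raises the MT value, so this is a description with no test.

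**Figure D5:**
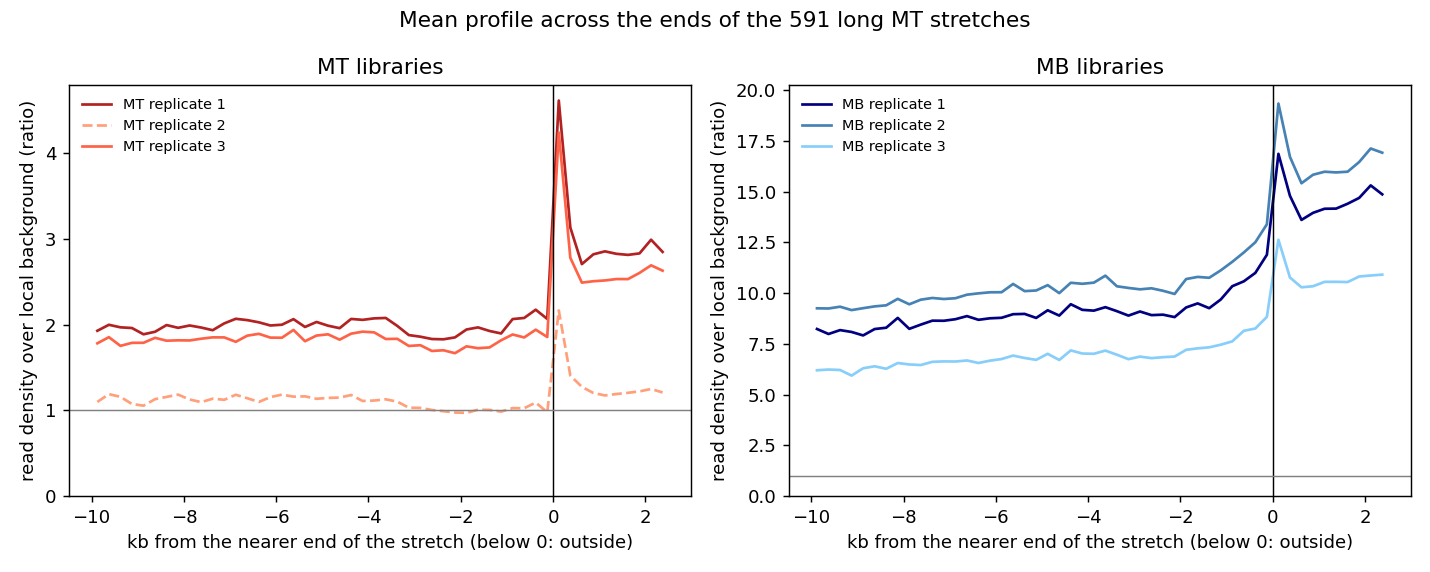
Mean read density over the local background (ratio, linear axes that differ between panels) by distance in kb from the nearer end of the stretch, from 10 kb outside to 2.5 kb inside, in the MT libraries (left) and the MB libraries (right). In the MT libraries the density steps up at the end, with 4.61, 2.16 and 4.24 in the first 250 bp; in the MB libraries it climbs toward the stretch from outside and reaches 12.6 to 19.3 there.

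Set against MB domains without a long MT stretch, the sign of the difference between the groups depended on MT replicate 2 and on the handling of the background. The choice of stretches and of these domains by MT peaks favours higher MT ratios, so the values are a description with no test. The stretches were 2.27, 1.17 and 2.17 times as dense as those domains in MT replicates 1, 2 and 3, against 2.09, 2.04 and 1.95 times in the MB libraries. The mean was 1.87 ± 0.611 in MT and 2.03 ± 0.0724 in MB (SD, n = 3 each), and 2.22 in MT without replicate 2. After the density of the windows without peaks was taken off both, the ratio was 3.69, 1.60 and 3.50 in MT, against 2.21, 2.12 and 2.07 in MB. The mean was then 2.93 ± 1.16 in MT and 2.13 ± 0.0722 in MB (SD, n = 3 each), higher in MT with MT replicate 2 kept. As a share of the reads in all joined MT peaks of any length, the long stretches held 36.8% ± 7.97 in MT and 54.7% ± 1.08 in MB (SD, n = 3 each). By library this was 42.6%, 27.7% and 40.2% in MT, against 55.6%, 55.0% and 53.5% in MB, and the MT mean without replicate 2 was 41.4%. Both the long stretches and the total were set by the MT list, so this too has no test.

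Chromosomes differed in how many stretches they held. On chromosomes 10 and 15 there were 61 and 80 of them, together 23.9% of the stretches, against 10.3% of MB domains and 8.85% of the covered sequence. Chromosome 15 had 7.73 stretches per 10 Mb, chromosome 7 had 0.262 and chromosome X 0.36. The density of windows without peaks, relative to the median chromosome, was also high on chromosome 15 and lowest on chromosomes 7 and X, but the order was not the same throughout. It was 1.29 to 1.31 on chromosome 15 in the MT libraries, against 1.20 to 1.26 in the MB libraries, and 1.19 to 1.21 on chromosome 10 in MT, against 1.07 to 1.12 in MB. On chromosome 7 it was 0.741 to 0.789 in MT, against 0.754 to 0.834 in MB. Chromosome 19 had 1.08 to 1.12 in MT, against 1.09 to 1.15 in MB, with 1.96 stretches per 10 Mb. Chromosome 11 had 1.12 to 1.19 in MT, against 1.12 to 1.24 in MB, with 3.04 stretches per 10 Mb, against 4.69 on chromosome 10. The part of this background in the number of stretches was not tested. Relative to the local background, the 141 stretches of chromosomes 10 and 15 had medians of 2.59, 1.34 and 2.501 in MT, against 11.6, 15.2 and 10.2 in MB. The 450 on other chromosomes had 3.09, 1.26 and 2.82 in MT, against 15.99, 17.7 and 11.6 in MB.

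Stretches also gathered in neighbourhoods: 281 of the 591 lay within 50 kb of another, in 105 groups. The largest held 13 stretches between 6539343 and 6791601 on chromosome 2, with 246.8, 91.8 and 217.2 RPM in MT, against 419.8, 444.2 and 366.2 RPM in MB. A group of 8 lay on chromosome 13 between 9353949 and 9535169, with 112.8, 43.0 and 99.1 RPM in MT, against 117.3, 133.2 and 93.3 RPM in MB. There MT replicates 1 and 3 fell in the range of the MB libraries, and MT replicate 2 below it.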

How the data were processed

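The authors deposited read positions on build mm9, per the submitters' processing notes (a line of chromosome, coordinate and strand for every read placed, in 1 file for each library). They also deposited 1 list of peak boundaries per group, with no score. For aligner, filters, peak caller, control and pooling, the sources used here give nothing. No line was repeated in any read file (0 in each), so densities in the most enriched places can be compressed. The files state no coordinate base, so positions are accurate to about 1 bp. Reads were counted here per stretch and in 10 kb windows that touch no stretch, and scaled to total reads. The floor for a feature was 15 reads in all and, at median library size, 10 reads in 3 or more libraries (2 or more where 1 library was left out). MT was set against MB in R 4.3.3 by limma voom (version 3.58.1; two-sided, Benjamini-Hochberg over all features, threshold 0.05), tested on simulated data, and single values by exact permutation tests. The simulated libraries shared 1 spread and had no outlying library, so that check does not cover a library like MT replicate 2. Other steps ran in Python 3.11.15 with SciPy 1.17.1, pandas 2.3.3, NumPy 2.4.6 and matplotlib 3.10.9. Background scaling took factors from the trimmed mean of M-values (TMM) in 208685 windows without peaks. Named stretches were the 10 longest, the 5 highest and 5 lowest log2 fold changes called with a mean of at least 50 reads, the 5 densest in MT, the 5 longest without an MB peak and the 2 nearest the length threshold on each side. The members, lists and tests were chosen with earlier results of these data known, and the comparisons within MB domains, along the stretches, by chromosome and by neighbourhood were added after the values were seen.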

Additional observations from a re-analysis of the deposited data

How the results depend on the processing

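Most stretches were lower in MT in every fit run except that with TMM over the stretches. Other rules for the stretches gave 101 of 111 lower and 0 higher (gaps of up to 1 kb), 954 of 1142 lower and 79 higher (gaps of up to 5 kb), and 166 of 182 lower and 2 higher (10 kb or longer), sets of other sizes by construction. Over all features the counts were 30643 lower and 165803 higher of 233745, 29652 and 165947 of 232515, and 30433 and 165908 of 233485. TMM over the stretches, which removes a shared change by construction, gave 77 lower and 121 higher with a median of 0.0046. Over all 240702 features it gave 691 lower and 217257 higher, with a median of 2.70. Background scaling gave 573 lower, 1 higher and a median of -2.92. With the replicate block it gave 568 lower, 2 higher and -3.09. Without MT replicate 2, a setting added after the data were seen, it gave 564 lower and 3 higher. Over all features these settings gave 46773 lower and 1292 higher of 235952, 47701 and 1624 of 235952, and 43696 and 1098 of 236306. With 1 library left out, 507 to 555 were lower and 8 to 15 higher, with medians of -2.29 to -1.64. Over all features the counts were then 27363 to 29787 lower and 142339 to 161085 higher, of 233991 to 237362. The replicate block with total reads gave 548 lower and 10 higher, against 30317 and 165926 of all 233249 features. Deviations of same-numbered libraries correlated at 0.31, -0.14 and -0.07 over the stretches, so libraries were treated as unpaired.

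The density of the stretches relative to MB domains without one differed by -0.36 to 0.19 with 1 library left out, reversing without MT replicate 2, and by 0.79 above the windows without peaks (added later). MB density in MT peaks over gaps was 1.54 and 1.66 with gaps of up to 1 and 5 kb. Overlap with MB peaks was 94.6% when 50% of the stretch had to lie in joined MB peaks. It was 90.4% when 50% of its MT peak bases had to lie in MB peaks before joining. Overlap by at least 1 bp was 99.1% and 91.2% with gaps of up to 1 and 5 kb. Among the 26 named stretches, TMM over the stretches reversed 2:49308229-49330649 (0.33), 4:107967569-107972575 (0.29), 7:74469435-74474437 (0.38), 9:49544473-49596761 (0.53), 10:39190004-39234484 (1.71), 15:25554268-25566359 (0.12), 15:25570003-25631435 (0.11), 15:27846501-27953402 (0.75), 17:10406764-10453230 (0.74), 17:10456499-10509978 (0.34) and X:166345915-166406300 (1.78). Background scaling reversed 3:55115336-55130628 (-0.44, and -0.70 with the replicate block) and 3:55135989-55144881 (-0.33 and -0.47), and the block with it reversed 2:76977085-76989544 (-0.10). With 1 library left out, 10:39190004-39234484 ran between -0.62 and 0.18 and X:166345915-166406300 between -0.90 and 0.081, both above 0 without MT replicate 2. Calls of named stretches were also lost with no change of direction: 9 with limma-trend, 6 without MB replicate 2, 6 with the replicate block and background scaling, 3 with background scaling, 3 with background scaling without MT replicate 2, 2 each with TMM over the stretches and without MB replicate 1 or 3, and 1 each without MT replicate 1 or 3. A call was gained with no change of direction by 1 named stretch each with TMM over the stretches and without MT replicate 1 or 2. Without MT replicate 1 it was 1 of the 2 uncalled among the 10 longest, then lower in MT. The replicate block alone lost 15:27846501-27953402 (-1.60, limma adjusted p = 0.113). Apart from the scalings, whose construction shifts all values, the cause was not tested. Depth limits most the stretches with the fewest reads, as few as 27, 14 and 44 reads in MT replicates 1, 2 and 3, against 17, 19 and 38 in the MB libraries.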
